A study of Mus musculus with 12 samples.

Results

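The expression of 42 interferon-stimulated genes was examined in glomerular RNA of 12 male eNOS-/- mice. The genes were chosen by name, as known targets of the interferon response, and all 42 were found by their symbol among the 14096 genes with deposited values. No measured value entered the choice, but it was made with earlier results of these data known. The gene set holds 5 transcription factors or signalling proteins, 7 sensors of nucleic acid, 8 genes of the ISG15, ubiquitin and ADP-ribose pathways, 7 antiviral effectors, 8 interferon-inducible GTPases and 7 other induced genes.

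The mice were on the C57BL/6J background, and every group, the nondiabetic controls included, carried the disrupted Nos3 gene and so lacked endothelial nitric oxide synthase. At 8 weeks of age, mice were made diabetic with streptozotocin (STZ), a toxin of pancreatic beta cells, given for 5 days at a daily dose of 50 mg/kg, or received citrate buffer. From week 10 after induction, they were gavaged for 8 weeks with arctigenin (ATG), a lignan, at 40 mg/kg per day or with 5% DMSO as vehicle. This gave 4 groups of 3 mice, called here Con+vehicle, Con+ATG, DM+vehicle and DM+ATG, and the glomeruli were taken at about 26 weeks of age. The labels describe bead perfusion followed by digestion to single cells and a sort for a fluorescent protein, whereas the methods of the study describe RNA from isolated glomeruli, so which cells entered the RNA cannot be settled from the labels. Nphs1, which encodes the podocyte protein nephrin, had a log2 value between 14.65 and 16.52 in every mouse.

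Type I interferons bind the IFNAR1 and IFNAR2 receptor chains, and the kinases JAK1 and TYK2 then phosphorylate STAT proteins, which join IRF9 and bind a DNA element called the interferon-stimulated response element (ISRE). Interferon gamma acts through its own receptor, JAK1, JAK2 and STAT dimers, which bind the gamma-activated sequence (GAS). The induced proteins sense or cut viral RNA, modify proteins with ISG15, block viral assembly or attack vacuoles that hold microbes, and in the glomerulus such genes are known to be inducible in endothelial cells, podocytes, mesangial cells and resident macrophages.

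The deposited value of a gene is a log2 of its reads after 1 scaling factor per library, without division by length, and the libraries held from 23.6 to 29.8 M reads (M, mega). Nos3 itself was read in every mouse, with 846 to 2703 reads, and its value does not show which exons were read. The part of the label that precedes the mouse number holds mice of only 1 group, so a preparation batch cannot be told apart from the group, and in each nondiabetic group mouse 1 had a label part of its own and no number there. The labels do not say more about separate handling. The p-values set group differences against the spread between mice of a group, and cannot separate treatment from preparation. In bulk RNA, fewer cells of a type and less RNA per cell cannot be told apart, which holds for every comparison given here.

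Per 1 kb of transcript, the set spanned a wide range of expression. Bst2 and Ifi27 stood highest, with log2 levels per kb of 11.35 and 11.43 in Con+vehicle, and Tgtp1 and Zbp1 stood lowest, at 4.02 and 4.94. Reads per mouse ranged from 20 for Zbp1 in its lowest library to 6070 for Lgals3bp in its highest. The members lay on 16 chromosomes, and 17 of them fell into 7 clusters with gaps under 1 Mb, such as Ifit2, Ifit3 and Ifit1 on chromosome 19 or Gbp7, Gbp3 and Gbp2 on chromosome 3.

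**Figure D1:**
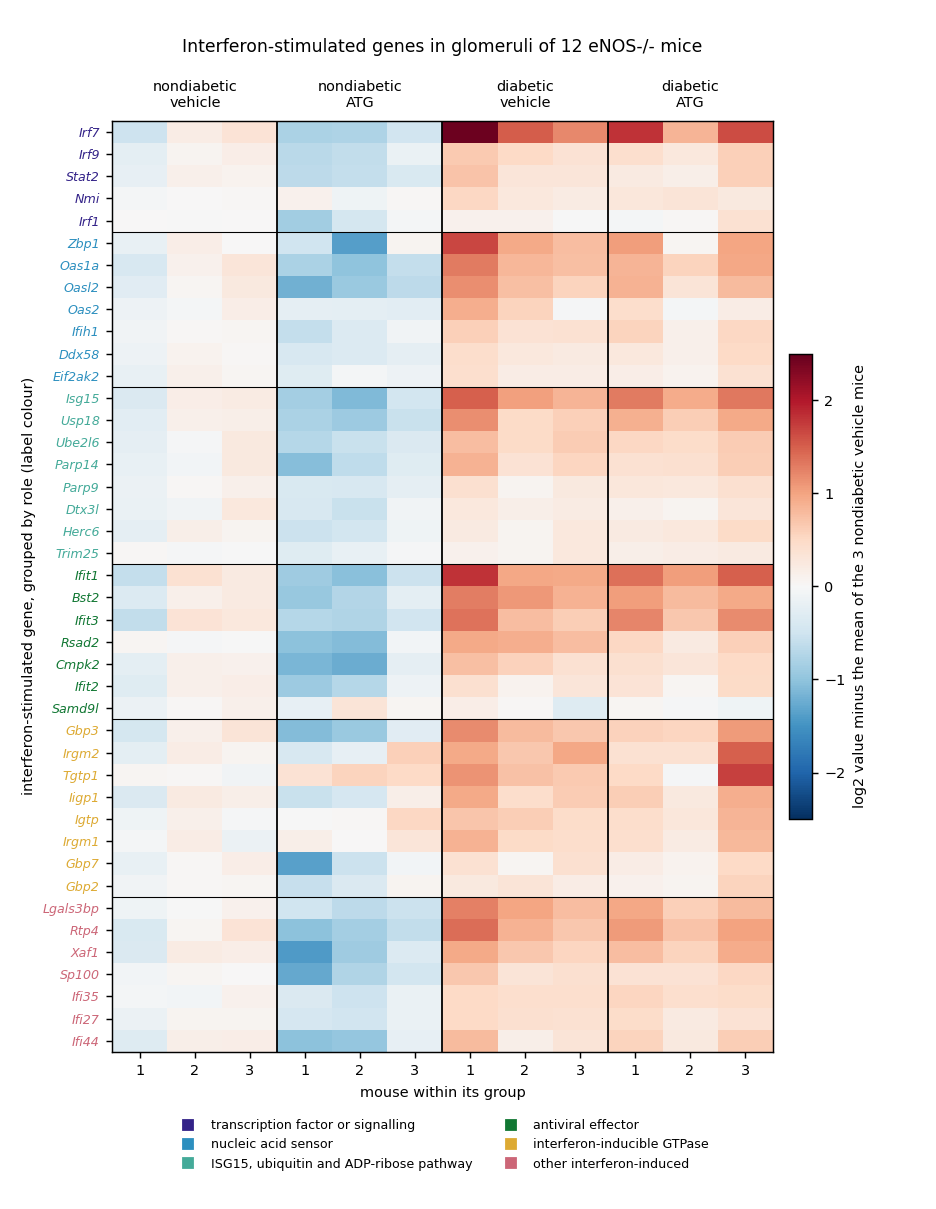
Each cell is the deposited log2 value of 1 gene in 1 mouse minus the mean of that gene in the 3 Con+vehicle mice, with the 42 genes in rows by role and the 12 mice in columns by group. The 2 diabetic groups are red for nearly all genes, Con+ATG is blue for most, and 36 of 42 genes are highest in mouse 1 of the 3 DM+vehicle mice.

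The first comparison asks how diabetes changed these genes in vehicle-treated mice. Nearly all of the genes had higher means in diabetic glomeruli, and 20 passed the test. In the limma fit across all listed genes, 20 of 42 rose at a Benjamini-Hochberg adjusted p under 0.05 and 0 fell, where 18.9% of all listed genes were called, 10.2% higher and 8.63% lower. The log2 difference was above 0 for 41 of 42 genes, with a median of 0.58 for the set and 0.01 for all listed genes. For 33 of 42, each DM+vehicle mouse lay above each Con+vehicle mouse, against 23% of all listed genes.

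Among the transcription factors, 3 of 5 rose with diabetes. Irf7, the master regulator of interferon alpha genes, at chr7:141263183-141266424 (GRCm38), had log2 values of 9.05, 9.74 and 9.89 in Con+vehicle, 8.77, 8.80 and 9.08 in Con+ATG, 12.02, 11.08 and 10.75 in DM+vehicle and 11.36, 10.41 and 11.19 in DM+ATG. All 6 diabetic mice lay above all 6 nondiabetic mice. DM+vehicle exceeded Con+vehicle by 1.72 ± 0.34 (log2 difference ± SE, limma, adjusted p = 0.00932), a 3.3-fold difference and the largest of the 42.

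Irf9, the DNA-binding subunit that joins STAT proteins, had values of 10.53, 10.83 and 10.94 in Con+vehicle and 11.43, 11.26 and 11.13 in DM+vehicle and rose by 0.50 ± 0.15 (adjusted p = 0.0409, limma). Nmi, a STAT-interacting protein, rose by 0.33 ± 0.09 (adjusted p = 0.0254). Stat2 differed by 0.44 ± 0.15, with values of 10.22, 10.54 and 10.50 in Con+vehicle and 11.14, 10.72 and 10.73 in DM+vehicle that did not overlap, but its adjusted p was 0.0588. Irf1, which is induced mainly by interferon gamma, had a difference of 0.07 ± 0.17 (adjusted p = 0.805, limma), with values of 10.69, 10.66 and 10.69 in Con+vehicle and 10.78, 10.79 and 10.68 in DM+vehicle.

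Of the 7 sensors, 3 rose. Oas1a and Oasl2 belong to the oligoadenylate synthetase family, whose active members make the messenger that switches on RNase L. Oas1a had values of 7.27, 7.77 and 7.96 in Con+vehicle, 6.87, 6.66 and 7.07 in Con+ATG, 8.96, 8.50 and 8.43 in DM+vehicle and 8.53, 8.23 and 8.64 in DM+ATG, and the groups with and without diabetes did not overlap. Its difference was 0.96 ± 0.20 (adjusted p = 0.0123), and that of Oasl2 was 0.82 ± 0.21 (adjusted p = 0.0216, both limma). Because 57.6% of the 50-base stretches of the Oas1a transcript also occur in transcripts of other genes, Oas1g among them, reads of these paralogs may not be separated.

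Ifih1, the sensor MDA5 for long double-stranded RNA, rose by 0.44 ± 0.14 (adjusted p = 0.0473, limma), the highest adjusted p of the 20 calls. Ddx58, the sensor RIG-I, differed by 0.31 ± 0.10 (adjusted p = 0.0588), and its DM+vehicle values of 10.91, 10.72 and 10.68 lay above the 10.33, 10.56 and 10.50 of Con+vehicle. Zbp1, a sensor of Z-form nucleic acid, had a large but poorly measured difference of 1.14 ± 0.38 (adjusted p = 0.0588), Eif2ak2, the kinase PKR, 0.27 ± 0.11 and Oas2 0.48 ± 0.20.

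In the ISG15 pathway, 3 of 8 genes rose. Isg15 encodes a ubiquitin-like modifier, Ube2l6 the enzyme that conjugates it and Usp18 the protease that removes it and restrains receptor signalling. Isg15, at chr4:156199424-156200818, had log2 values of 8.45, 8.98 and 9.01 in Con+vehicle, 7.97, 7.71 and 8.35 in Con+ATG, 10.31, 9.84 and 9.67 in DM+vehicle and 10.11, 9.74 and 10.14 in DM+ATG. The lowest diabetic mouse, at 9.67, stood above the highest nondiabetic mouse, at 9.01. The difference with diabetes was 1.13 ± 0.22 (adjusted p = 0.00877, limma), or 2.18-fold.

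Usp18 rose by 0.74 ± 0.18 (adjusted p = 0.0201, limma) from values of 8.40, 8.79 and 8.81 in Con+vehicle to 9.83, 9.14 and 9.27 in DM+vehicle. Ube2l6 rose by 0.62 ± 0.13 (adjusted p = 0.0112). The other 5 genes had differences from 0.14 for Trim25, a ubiquitin ligase that acts on RIG-I, to 0.59 for Parp14, an ADP-ribosyltransferase whose adjusted p of 0.052 missed the threshold in limma. Dtx3l and Parp9, which act as a pair, lie side by side on chromosome 16 with overlapping annotated spans, and the sources used here do not state whether counting used strand.

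Antiviral effectors rose in 4 of 7 cases. Ifit1 binds viral RNA and holds back its translation, Bst2 (tetherin) keeps budding virus at the cell surface, and Rsad2 (viperin) makes a chain-terminating nucleotide. Ifit1, at chr19:34640889-34650009, had values of 8.59, 9.57 and 9.42 in Con+vehicle, 8.30, 8.14 and 8.65 in Con+ATG, 11.00, 10.15 and 10.13 in DM+vehicle and 10.57, 10.24 and 10.69 in DM+ATG. Each diabetic mouse was above each nondiabetic mouse, and the mouse with the highest value, mouse 1 of DM+vehicle, stood well apart from the other 2 of its group. The difference of 1.24 ± 0.28 (adjusted p = 0.0158, limma) was the largest among the effectors.

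Bst2 had log2 values of 10.62, 11.08 and 11.19 in Con+vehicle, 10.01, 10.24 and 10.73 in Con+ATG, 12.24, 12.05 and 11.83 in DM+vehicle and 12.01, 11.76 and 11.92 in DM+ATG, again with no overlap between diabetic and nondiabetic mice, and rose by 1.08 ± 0.19 (adjusted p = 0.00636, limma). Rsad2 rose by 0.88 ± 0.22 (adjusted p = 0.0212) and Ifit3 by 0.91 ± 0.27 (adjusted p = 0.037). Of the Ifit3 transcript, 51.2% of 50-base stretches are shared, mainly with its paralog Ifit3b. Cmpk2, a mitochondrial nucleotide kinase next to Rsad2, differed by 0.57 ± 0.23 and Ifit2 by 0.26 ± 0.20, neither past the threshold. Samd9l, a growth-restraining antiviral factor, was the only gene with a difference under 0, at −0.04 ± 0.15.

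The GTPases act on vacuoles that enclose bacteria and parasites. Here 3 of 8 rose: Gbp3, a guanylate-binding protein, by 0.88 ± 0.25 (adjusted p = 0.0338), Igtp by 0.59 ± 0.16 (adjusted p = 0.0317) and Irgm1 by 0.59 ± 0.16 (adjusted p = 0.0309, all limma). Igtp had log2 values of 9.37, 9.59 and 9.43 in Con+vehicle and 10.15, 10.09 and 9.92 in DM+vehicle, which did not overlap. Iigp1 differed by 0.67 ± 0.23 (adjusted p = 0.0627, limma) and Gbp2 by 0.25 ± 0.16 (adjusted p = 0.287). Tgtp1 shares 91.4% of its 50-base stretches, mostly with Tgtp2, so its low counts of 40 to 144 reads cannot be assigned to it alone.

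Of the remaining 7 genes, 4 rose. Lgals3bp, a secreted galectin-binding glycoprotein at chr11:118392752-118401931, had values of 11.40, 11.50 and 11.61 in Con+vehicle, 11.01, 10.85 and 10.96 in Con+ATG, 12.77, 12.49 and 12.27 in DM+vehicle and 12.47, 12.10 and 12.30 in DM+ATG. Its diabetic mice lay above its nondiabetic mice, and its difference of 1.01 ± 0.13 had the lowest adjusted p of the set (0.00211, limma). Rtp4, a chaperone and inhibitor of viral RNA synthesis, rose by 0.98 ± 0.21 (adjusted p = 0.013), Ifi35, a partner of NMI, by 0.44 ± 0.09 (adjusted p = 0.0094) and Ifi27 by 0.42 ± 0.10 (adjusted p = 0.0158). Xaf1, Sp100 and Ifi44 had differences of 0.72, 0.47 and 0.42 that missed the threshold.

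**Figure D2:**
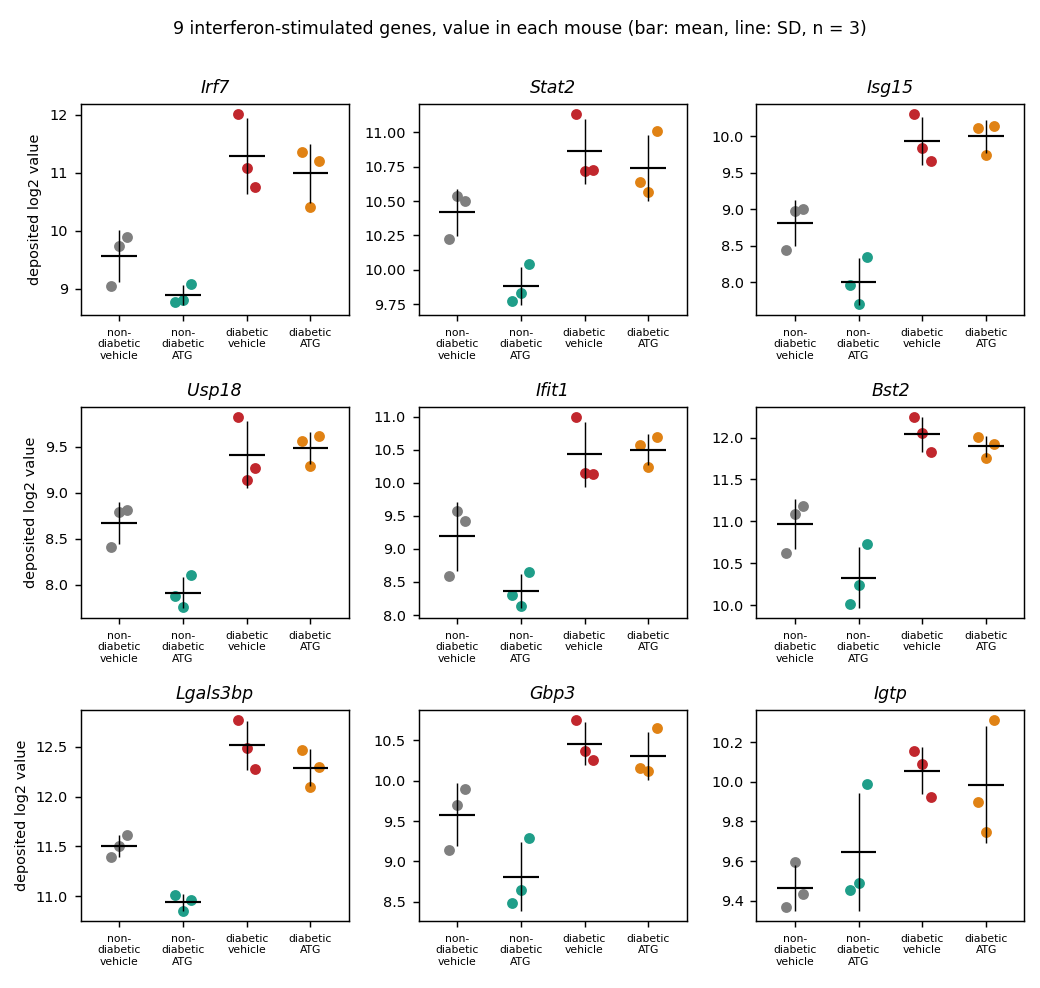
Each point is the deposited log2 value of 1 mouse for 9 of the genes, with bars for the mean and lines for the SD of 3 mice per group. For Isg15, Ifit1, Bst2 and Lgals3bp, all 6 diabetic mice lie above all 6 nondiabetic mice, and Con+ATG has the lowest mean of the 4 groups in 8 of the 9 panels, Igtp being the exception.

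The number of calls rested on single mice. It fell to 7 without mouse 1 of DM+vehicle, to 8 without mouse 1 of Con+vehicle and to 10 without mouse 2 of Con+vehicle, while the calls over all listed genes fell from 2659 to 1003, 1262 and 801. The calls of Lgals3bp, Bst2, Isg15, Irf7, Ifi35, Ube2l6 and Rtp4 were kept when each of the 12 mice was left out in turn. Without both unnumbered nondiabetic mice, 10 genes were called, with a median difference of 0.47 and 1836 calls over all listed genes.

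Several marker lists moved with diabetes as well. The mean log2 value of 29 leukocyte markers was 7.90 to 8.35 in Con+vehicle and 8.33 to 8.72 in DM+vehicle, with 9 markers higher and 1 lower in limma. Ptprc (CD45) had log2 values of 9.04 to 9.43 and 9.65 to 9.97, while the T cell genes Cd3e, Cd3g, Cd4 and Cd8a and the B cell genes Cd79a and Cd79b were not among the listed genes. Of 20 endothelial markers 10 were higher and 0 lower. Of 20 podocyte markers 0 were called, with a median of 0.13. Of 15 mesangial markers 2 were higher and 1 lower, with a median of −0.24. The mean of 41 tubule markers was 12.06 to 12.58 in Con+vehicle and 10.25 to 11.58 in DM+vehicle, with 26 lower and 0 higher.

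With the tubule mean as a covariate, 1 gene of the set was called (Lgals3bp, 1.10), the median difference was 0.33, and the calls over all listed genes fell from 2659 to 524. With the leukocyte mean as a covariate, 1 gene was called as well (Lgals3bp, 0.76), with a median of 0.49 and 190 calls over all listed genes. When each library was scaled to its podocyte, endothelial and mesangial markers, 5 were called (Irf7, Isg15, Bst2, Lgals3bp and Rsad2), with a median of 0.48 and 472 calls over all listed genes. The part of these markers in the result was not tested further.

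The next comparison asks whether ATG changed these genes in diabetic mice. No gene of the set passed the threshold in limma, of 0% of all listed genes called, and 0 of 42 had an unadjusted p under 0.05, where 4.51% of all listed genes did. Limma-voom on recovered reads also called 0. The median difference between DM+ATG and DM+vehicle was −0.06, with a range from −0.44 to 0.14, and 29 of 42 were below 0. The 95% intervals had a median half-width of 0.41, and their lower bound was above −1 for 40 of 42 genes and above −0.5 for 24. For the other genes, a decrease of that size lay within the interval.

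Rsad2 had the lowest unadjusted p of the set in this comparison and was the only gene with every DM+ATG mouse below every DM+vehicle mouse, which held for 6.32% of all listed genes. Its log2 values were 12.21, 12.17 and 12.03 in DM+vehicle and 11.78, 11.49 and 11.87 in DM+ATG, a difference of −0.43 ± 0.22 with a 95% interval of −0.91 to 0.05 (adjusted p = 0.9997, limma). Lgals3bp differed by −0.22 ± 0.13 and Oas2, an oligoadenylate synthetase, by −0.29 ± 0.20, with overlapping groups in both. Among 29 leukocyte markers in the same comparison, 25 were below 0 and 9 had an unadjusted p under 0.05, with a median of −0.40 and 0 calls in limma or limma-voom. For Isg15 the difference was 0.06 ± 0.22, with an interval of −0.42 to 0.54, for Irf7 −0.29 ± 0.34, with −1.04 to 0.45, and for Bst2 −0.14 ± 0.19, with −0.56 to 0.28.

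Between the diabetic groups, mice of the same treatment differed as much as the treatments did. Over the 42 genes, the mean log2 value was 10.65, 10.32 and 10.28 in DM+vehicle and 10.37, 10.14 and 10.53 in DM+ATG. Mouse 1 of DM+vehicle was the highest of its group for 36 genes, and mouse 2 of DM+ATG was the lowest of its group for 35. The median SD within a group was 0.188 to 0.255 for the set and 0.0888 to 0.162 for all listed genes over the 4 groups.

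DM+ATG was also set against Con+vehicle, a comparison added after the data had been seen, which shares mice with both comparisons above. Of 42 genes, 11 were higher and 0 lower in limma, where 6.63% of all listed genes were called, 4.15% higher and 2.48% lower, and the median was 0.46. Lgals3bp (0.78 ± 0.13, adjusted p = 0.0111), Isg15 (1.19 ± 0.22, 0.0159), Ifi35 (0.47 ± 0.09, 0.0173), Bst2 (0.93 ± 0.19, 0.0207) and Ifit1 (1.31 ± 0.28, 0.0258) had the lowest p in that fit. Usp18, Rtp4, Irf7, Ube2l6, Oas1a and Ifit3 were the others, at 0.82, 0.93, 1.43, 0.54, 0.80 and 1.02. For 33 of 42 genes, each DM+ATG mouse lay above each Con+vehicle mouse, against 22.1% of all listed genes. The count fell to 0 without mouse 1 of DM+ATG, to 1 without mouse 3 of DM+ATG or mouse 1 or 2 of Con+vehicle, and rose to 17 without mouse 3 of Con+ATG, while the calls over all listed genes went from 935 to 114, to between 123 and 175, and to 1673. In this comparison, 40 of 41 tubule markers were below 0, with a median of −1.03 and 8 lower, and 6 of 20 endothelial markers were higher. With the tubule mean as a covariate and with the scaling to podocyte, endothelial and mesangial markers, 0 of the 42 genes were called in limma, where 76 and 93 of all listed genes were, and with the leukocyte mean 8 were, with 540 calls over all listed genes.

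ATG in nondiabetic mice addresses what the compound did without diabetes. Most of the genes had lower means in Con+ATG, and few passed the test. Of 42 genes, 8 fell and 0 rose in limma, where 5.22% of all listed genes were called, 4.51% lower and 0.709% higher. The median difference was −0.54 for the set and −0.04 for all listed genes, 37 of 42 were below 0, and 30 had an unadjusted p under 0.05, against 30.2% of all listed genes.

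**Figure D3:**
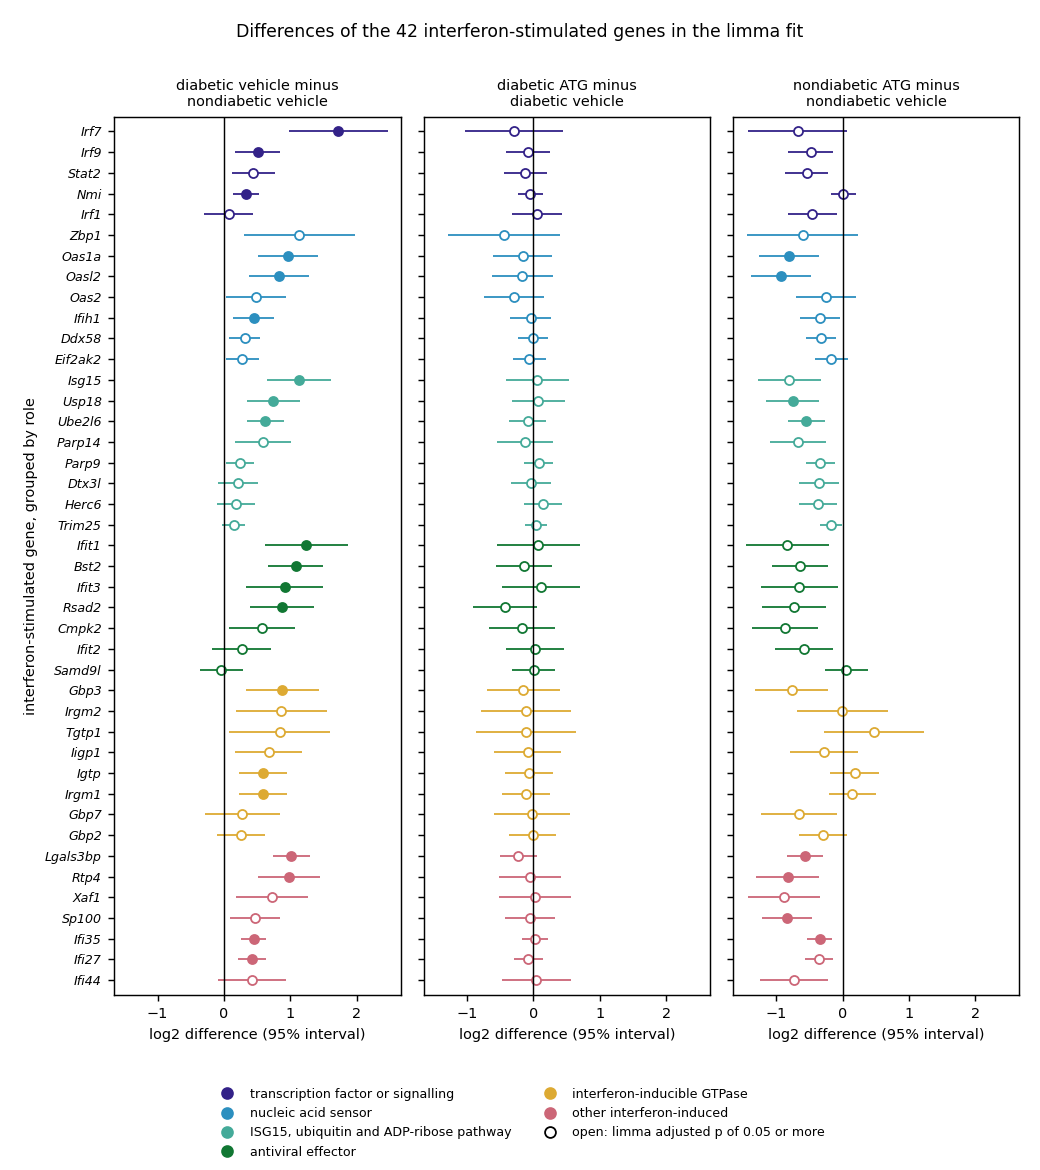
Points are log2 differences and lines their 95% intervals in the limma fit for the 42 genes in 3 comparisons, filled where the adjusted p is under 0.05. With diabetes 20 points are filled, all right of 0, with ATG in diabetic mice 0, and with ATG in nondiabetic mice 8, all left of 0.

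Sp100, a nuclear body protein that represses viral genomes, had log2 values of 9.81, 9.92 and 9.89 in Con+vehicle and 8.58, 9.13 and 9.41 in Con+ATG. The groups did not overlap, and the difference of −0.83 ± 0.17 had the lowest adjusted p of the set (0.0251, limma). Oasl2 fell by 0.93 on the log2 scale (SE 0.21, adjusted p = 0.0328), from 9.38, 9.71 and 9.90 in Con+vehicle to 8.47, 8.74 and 9.01 in Con+ATG. Lgals3bp changed by −0.57 ± 0.13 (adjusted p = 0.0335), with Con+ATG values of 11.01, 10.85 and 10.96 that all lay below the lowest Con+vehicle mouse, at 11.40.

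The other 5 calls were Ube2l6 at −0.54 ± 0.13 (adjusted p = 0.0393), Usp18 at −0.75 ± 0.18 (0.0417), Ifi35 at −0.35 ± 0.09 (0.0469), Oas1a at −0.80 ± 0.20 (0.0476) and Rtp4 at −0.83 ± 0.21 (0.0494), all from limma. Isg15, with values of 8.45, 8.98 and 9.01 in Con+vehicle and 7.97, 7.71 and 8.35 in Con+ATG that did not overlap, missed the threshold at −0.80 ± 0.22 (adjusted p = 0.0555). Stat2 differed by −0.54 ± 0.15 (adjusted p = 0.058), Irf9 by −0.48 ± 0.15, Irf7 by −0.68 ± 0.34 and Irf1 by −0.45 ± 0.17, with no call among the transcription factors. Bst2 was at −0.64 ± 0.19, Ifit1 at −0.83 ± 0.28, Ifit3 at −0.65 ± 0.27, Ifih1 at −0.34 ± 0.14 and Ddx58 at −0.32 ± 0.10.

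The GTPases had a median of −0.14, and 0 of 8 were called in limma, as were 0 of 7 effectors and 0 of 5 transcription factors, though 2 GTPases, 6 effectors and 3 transcription factors had an unadjusted p under 0.05. Igtp was 0.18 ± 0.16 higher, Irgm1 0.15 ± 0.16 and Tgtp1 0.47 ± 0.34, and Irgm2 stood close to 0. Gbp3, Gbp7, Gbp2 and Iigp1 were below 0, at −0.77, −0.65, −0.30 and −0.28. The only other genes above 0 were Nmi and Samd9l, at 0.01 and 0.06. Whether the GTPases differed from the other members was not tested.

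These calls were not stable to single mice. Without mouse 3 of Con+ATG, which was the highest of its group for 36 of 42 genes, 30 genes were called lower, while the calls over all listed genes went from 736 to 3531. Without mouse 2 of Con+ATG or mouse 2 or 3 of Con+vehicle, 0 were called, and without mouse 1 of either nondiabetic group or mouse 3 of DM+ATG, 1 was. Leaving out mouse 1 or 2 of DM+vehicle gave 5 calls and mouse 1 or 2 of DM+ATG 3 calls, and without mouse 3 of DM+vehicle 12 were called, since all groups share the estimate of the spread. The calls over all listed genes were 60 to 382 in the fits with 0 calls in the set, 127 to 363 in those with 1, 397 and 450 in those with 3, 400 and 793 in those with 5 and 1420 in the fit with 12. None of the 8 was kept in all 12 of these fits. With only the groups compared in the fit, 0 of 42 and 0 of 14096 listed genes were called. Without both unnumbered nondiabetic mice 0 and 8 were, and with median-ratio scaling 2 and 538.

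In Con+ATG, markers of the glomerular cell types stood lower too. Of 15 mesangial markers 10 fell, of 20 endothelial markers 12 and of 20 podocyte markers 1, with all 55 estimates below 0, while all 41 tubule markers had estimates above 0 and none passed the threshold. The tubule mean was 12.72 to 13.32 in Con+ATG against 12.06 to 12.58 in Con+vehicle. Of 29 leukocyte markers 25 were below 0, with a median of −0.43 and 0 calls. With the tubule or the leukocyte mean as a covariate, 0 of 42 were called, and the median was −0.39 and −0.38, while the calls over all listed genes fell from 736 to 47 and 219. When libraries were scaled to the podocyte, endothelial and mesangial markers, the median turned to 0.16 and 9 of 42 genes were called higher, where 11138 of 14096 listed genes were called and the median of all listed genes was 0.66. That scaling adds a constant per library, so the distance of the set from the median of all listed genes cannot change under it. How far the cell makeup of these preparations set the values was not tested further.

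**Figure D4:**
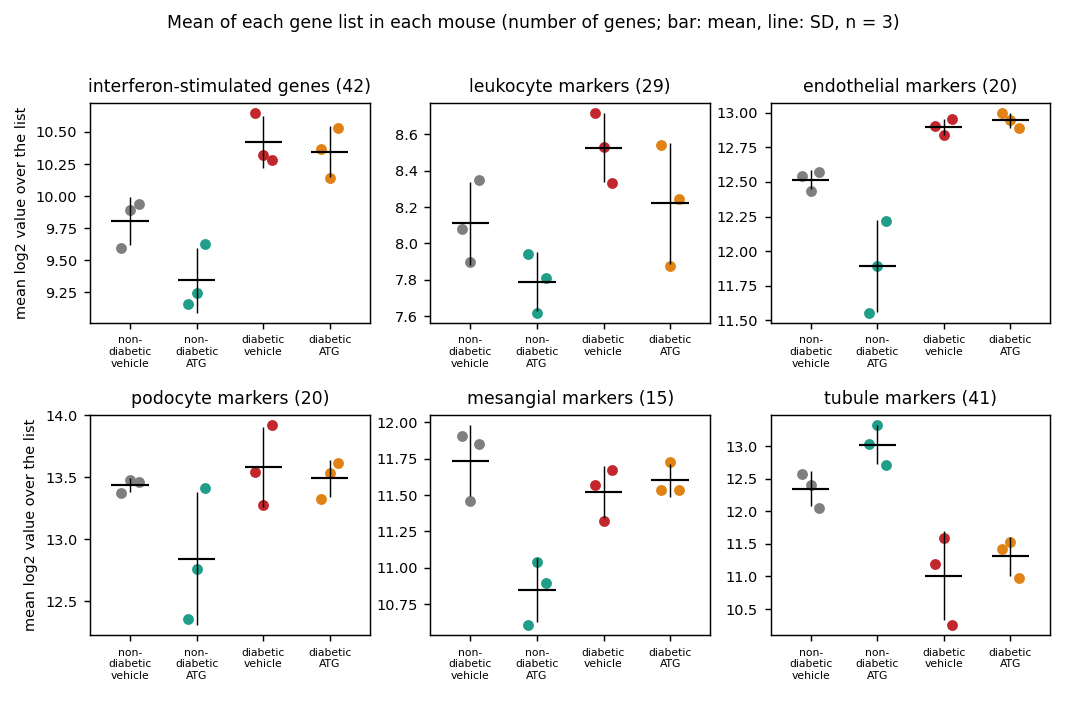
Points give the mean log2 value of each gene list in each mouse, with bars for the mean and lines for the SD of 3 mice per group, on a separate axis per list. The interferon-stimulated genes and the leukocyte, endothelial, podocyte and mesangial markers have their lowest mean in Con+ATG. The tubule markers are highest there, at 12.72 to 13.32, and lower in all 6 diabetic mice.

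The contrast of DM+ATG with Con+ATG gives the diabetes difference among treated mice. Of 42 genes, 36 were higher and 0 lower in limma, where 46.7% of all listed genes were called, 25.9% higher and 20.8% lower. The median was 0.89. Lgals3bp (1.35 ± 0.13), Ifi35 (0.81 ± 0.09), Isg15 (1.99 ± 0.22), Usp18 (1.58 ± 0.18) and Ube2l6 (1.08 ± 0.13) had the lowest p. Next came Rtp4, Bst2, Oas1a, Oasl2, Ifi27 and Sp100, at 1.76, 1.57, 1.60, 1.59, 0.70 and 1.24, while Ifit1, at 2.14 ± 0.28, and Irf7, at 2.11 ± 0.34, had the largest differences. Ifit3, Irf9, Stat2, Ifih1, Ddx58, Iigp1, Irf1 and Gbp2 were higher as well, at 1.67, 0.91, 0.86, 0.74, 0.62, 0.87, 0.58 and 0.54. Igtp, at 0.34 ± 0.16, Irgm1, at 0.33 ± 0.16, Irgm2, Tgtp1, Oas2 and Samd9l were not called. In the same comparison, 19 of 20 endothelial markers (median 1.12), 11 of 15 mesangial and 8 of 20 podocyte markers were higher and 38 of 41 tubule markers lower. With the tubule mean as a covariate only Lgals3bp was called (1.47) and the median was 0.66, and with the leukocyte mean 28 were, with 4784 calls over all listed genes, while with the tubule mean the calls over all listed genes fell from 6585 to 124. With the marker scaling, 13 were called higher and 5 lower, where 11392 of 14096 listed genes were called, and the median was 0.0702 where that of all listed genes was −0.77.

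The difference of the 2 ATG effects tests whether ATG acted differently in diabetic and nondiabetic mice. In limma, 0 of 42 genes passed, where 0.546% of all listed genes did, while 13 had an unadjusted p under 0.05 against 12.9% of all listed genes, and limma-voom called 0. The median was 0.41, with 35 of 42 above 0. Mesangial markers had a median of 0.97 (15 of 15 above 0, 3 called) and endothelial markers of 0.63 (20 of 20 above 0, 2 called). Usp18 (0.83 ± 0.26, adjusted p = 0.217), Sp100 (0.78 ± 0.24, adjusted p = 0.22) and Ifi35 (0.37 ± 0.12, adjusted p = 0.249) had the lowest p in limma. Without mouse 3 of Con+ATG, 6 genes were called, with 770 calls over all listed genes against 77 before. With the marker scaling the median was −0.31 where that of all listed genes was −0.70, and 5 were called lower, where 5905 of 14096 listed genes were called.

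Across all 12 mice, the order of the groups was shared by most of the set. Both diabetic means were above both nondiabetic means for 41 of 42 genes, Con+ATG had the lowest mean for 37, and DM+vehicle had the highest for 29 and DM+ATG for 12. For 27 of 42 genes, all 6 diabetic mice were above all 6 nondiabetic mice, which held for 13.3% of all listed genes in that direction. The narrowest of these gaps was that of Gbp2, with a lowest diabetic value of 9.907 and a highest nondiabetic value of 9.906, and among the widest was that of Isg15, at 9.67 against 9.01.

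The pathway that leads to these genes was given from a list of 41 genes of interferon signalling, of which 28 were among the listed genes. None of the 11 ligands on it was listed, Ifnb1, Ifng and the interferon alpha genes among them. In limma, 6 of 28 rose with diabetes and 0 fell, and 3 fell with ATG in nondiabetic mice. For ATG in diabetic mice 0 were called, also by limma-voom, and 3 had an unadjusted p under 0.05, 2 lower and 1 higher. Each DM+ATG mouse lay below each DM+vehicle mouse for 4 of 28, Ifngr2 and Irf5 among them, and above for 1. Of 14096 listed genes, 891 lay below and 543 above in that way. Of all listed genes, 10.2% rose with diabetes, 4.51% had an unadjusted p under 0.05 for ATG in diabetic mice and 4.51% fell with ATG in nondiabetic mice.

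Of the receptor chains, Ifnar2 rose with diabetes by 0.39 ± 0.09 (adjusted p = 0.0184) and Ifngr2 by 0.53 ± 0.10 (adjusted p = 0.0096, both limma). Their partners Ifnar1, at 0.06 ± 0.07, and Ifngr1, at 0.13 ± 0.21, were not called, nor were Ifnlr1 (−0.11 ± 0.18) and Il10rb (0.14 ± 0.11), the chains of the interferon lambda receptor. The kinases had estimates near 0, with Jak1 at 0.03 ± 0.10, Jak2 at −0.07 ± 0.06 and Tyk2 at 0.12 ± 0.07.

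Irf8 and Irf5, transcription factors of macrophages and dendritic cells, rose by 1.00 ± 0.14 (adjusted p = 0.00278) and 1.04 ± 0.20 (adjusted p = 0.00799, both limma), and Irf3 rose by 0.18 ± 0.05 (adjusted p = 0.0379). Irf8 had values of 9.31, 8.96 and 8.99 in Con+vehicle, 8.80, 9.28 and 9.29 in Con+ATG, 10.17, 9.99 and 10.09 in DM+vehicle and 9.97, 9.78 and 9.93 in DM+ATG, with all 6 diabetic mice above all 6 nondiabetic mice. With ATG in nondiabetic mice, Irf2 changed by −0.30 ± 0.06 (adjusted p = 0.0251), Il10rb by −0.45 ± 0.11 (adjusted p = 0.0393) and Irf3, the factor activated by nucleic acid sensors, by −0.22 ± 0.05 (adjusted p = 0.0428, all limma). Under the marker scaling these 3 stood at 0.41, 0.25 and 0.48, below the median of all listed genes, and of 12 fits that left out a mouse the call was kept in 7 for Irf2, 3 for Il10rb and 3 for Irf3.

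A further list held 82 interferon-induced genes outside the set, of which 70 were listed. With diabetes, 32 rose and 0 fell in limma, where 10.2% of all listed genes rose, with a median of 0.39. The lowest p belonged to Ifi47, another immunity-related GTPase (1.08 ± 0.17, adjusted p = 0.00437), Ifi27l2a (1.65 ± 0.29, adjusted p = 0.00602) and Ifitm3, which blocks viral entry (0.94 ± 0.17, adjusted p = 0.00627). With ATG in diabetic mice 0 were called, with 3 at an unadjusted p under 0.05, against 4.51% of all listed genes, and 0 calls by limma-voom. In nondiabetic mice 8 fell with ATG and 0 rose, where 4.51% of all listed genes fell, led by Trim14, an adaptor of antiviral signalling (−0.77 ± 0.13, adjusted p = 0.0103), Gbp5 (−0.63 ± 0.12, adjusted p = 0.0205) and Dhx58, the sensor LGP2 (−0.80 ± 0.17, adjusted p = 0.0273). Of 12 fits that left out a mouse, the call was kept in 11 for Trim14, 7 for Gbp5 and 8 for Dhx58, and with the marker scaling Gbp5 stood at 0.0746.

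The promoters of the set were then read, since the ISRE and the GAS are where the signal meets the gene. Of the 42 genes, 34 had a window of 300 bases (250 before to 50 after the start) in the RefSeq promoters of GRCm38.p6, while Zbp1, Oas2, Usp18, Parp9, Parp14, Iigp1, Ifi27 and Rtp4 had no entry. As the ISRE, the letters GAAA followed, after any 2 bases, by GAAA again were searched on both strands, with overlapping matches counted. As the GAS, the letters TTCNNNGAA were searched, a pattern that is its own reverse complement. The ISRE was found in 17 of 34 members (50.0%) against 3.99% of 27025 genes with a window, and the GAS in 10 of 34 (29.4%) against 9.55%. A match describes the letters and is not evidence of binding.

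By role, the ISRE was in 7 of 7 GTPases, 4 of 5 sensors and 4 of 7 effectors, but in 1 of 5 transcription factors (Stat2), 1 of 5 genes of the ISG15 pathway (Isg15) and 0 of 5 other genes. The 17 members with an ISRE had a median diabetes difference of 0.84, with 10 called, and the 17 without had 0.44, with 7 called. For ATG in nondiabetic mice, both medians were −0.54, with 1 and 5 called. The 10 members with a GAS and the 24 without had medians of 0.52 and 0.54 for diabetes, and of −0.40 and −0.55 for ATG in nondiabetic mice.

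Windows of 4 members are shown, 150 bases that end just before the start, with the letters of each match in capitals: Isg15 and Ifit1 as members that rose among the most, each with several ISRE matches, and Igtp and Tgtp1 as GTPases with both motifs.
Isg15 (chr4:156200819-156200968, minus strand): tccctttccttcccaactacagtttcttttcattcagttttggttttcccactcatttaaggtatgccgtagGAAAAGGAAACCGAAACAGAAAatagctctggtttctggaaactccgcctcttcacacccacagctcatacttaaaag
Ifit1 (chr19:34640739-34640888, plus strand): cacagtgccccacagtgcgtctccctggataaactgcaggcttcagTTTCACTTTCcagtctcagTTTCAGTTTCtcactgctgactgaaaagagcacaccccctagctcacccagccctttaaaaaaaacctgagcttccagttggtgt
Igtp (chr11:58199406-58199555, plus strand): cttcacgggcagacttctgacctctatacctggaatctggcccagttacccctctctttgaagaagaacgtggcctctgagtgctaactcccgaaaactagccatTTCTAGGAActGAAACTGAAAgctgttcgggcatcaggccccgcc
Tgtp1 (chr11:48992247-48992396, minus strand): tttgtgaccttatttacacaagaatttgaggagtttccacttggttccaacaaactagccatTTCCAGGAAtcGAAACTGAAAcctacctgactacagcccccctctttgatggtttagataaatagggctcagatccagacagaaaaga
In Isg15, 3 overlapping ISRE matches formed a single run, which began 78 bases before the start. In Ifit1, the matches lay 104 and 85 bases before the start and read on the opposite strand. In Igtp and Tgtp1, and in Irgm2, a GAS began 11 bases before an ISRE, an arrangement chosen for counting after these windows had been seen. It occurred in 5 of 32851 windows, and the other 2 were those of Tgtp2 and Gm12185.

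**Figure D5:**
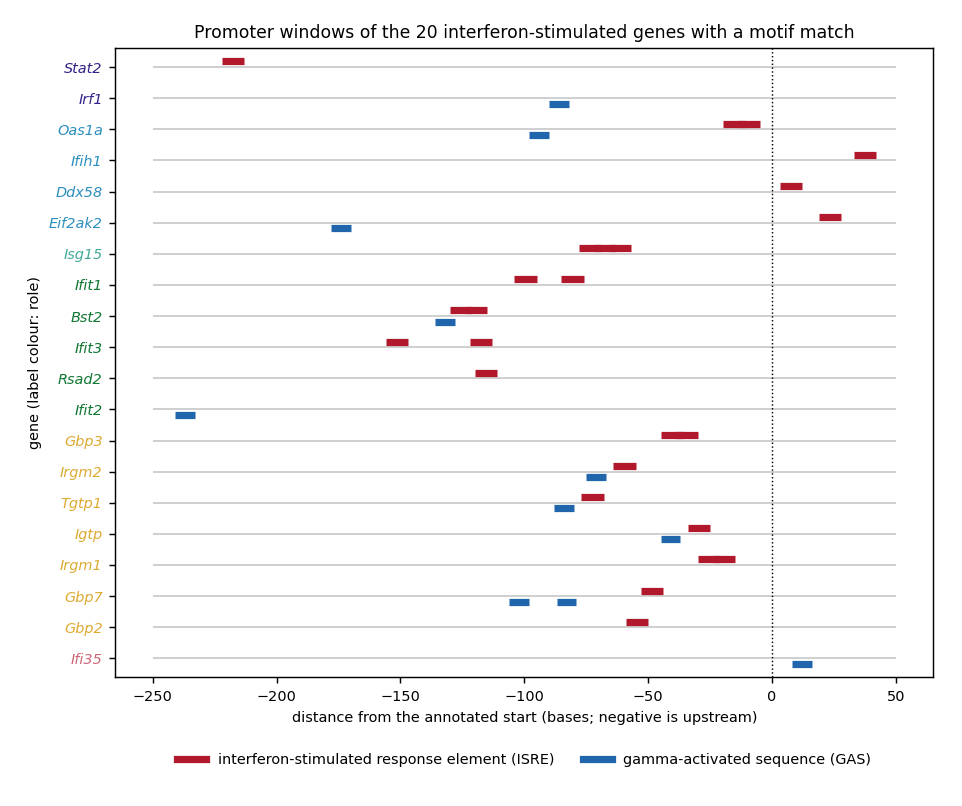
Each row is the promoter window of 1 of the 20 genes with a match, from 250 bases before to 50 after the annotated start, with ISRE matches in red and GAS matches in blue. All 7 GTPases with a window have an ISRE between the start and 80 bases before it, and Igtp, Irgm2 and Tgtp1 have a GAS just ahead of it.

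The Gene Ontology terms deposited with the values were counted as well. Of the 42 genes, 14 carried the term for defense response to virus, against 95 of 14096 listed genes, 17 that for innate immune response, against 219, and 8 that for cellular response to interferon-beta, against 25. The genes were chosen as known targets of the interferon response, so an excess of these terms was given by that choice.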

How the data were processed

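Glomerular RNA of 12 mice was sequenced, and each file holds 1 mouse. The deposited values are log2 expression per gene. Per the labels, the authors' notes name the build mm10 and limma, and the aligner, counter and filter are not given in the sources used here. Linear values were divided by the smallest step of each library, which gave whole reads (within 0.02 reads, for values below 2000 reads) for 83.4% to 83.9% of values. These reads gave the depth and the limma-voom alternative.

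All 14096 genes entered 1 limma fit (version 3.58.1, R 4.3.3) of 4 groups with a mean-variance trend, and p-values were Benjamini-Hochberg adjusted over all genes (threshold 0.05). The 42 genes and all other lists were chosen with earlier results of these data known. Genes named per comparison were the called genes by p (up to 12, or the 3 with the lowest p where fewer than 3 were called), 16 genes named throughout, receptors and kinases, and up to 3 called genes of the other lists, and further members were given by role. Results of a signalling gene are not reported here.

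Alternatives were a fit of only the groups compared, a replicate block, leaving out each mouse or both unnumbered nondiabetic mice, a filter at 100 on the linear scale or at a mean log2 value of 8, a pseudocount of 16, median-ratio scaling, limma-voom, no trend, and the tubule or leukocyte mean as a covariate. The marker scaling and the comparison of DM+ATG with Con+vehicle were added after the data had been seen. No sample column was left unused (0).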

Additional observations from a re-analysis of the deposited data

Results flagged for a closer look

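Trim14, an interferon-induced adaptor outside the 42 genes, had the only adjusted p under 0.05 for the difference of the 2 ATG effects among 70 further interferon-induced genes, with a log2 difference of 1.06 ± 0.18 (adjusted p = 0.0455, limma). Its log2 values were 9.62, 9.48 and 9.32 in Con+vehicle, 8.57, 8.69 and 8.84 in Con+ATG, 9.20, 9.47 and 9.59 in DM+vehicle and 9.56, 9.70 and 9.86 in DM+ATG. With ATG it was lower in each of 3 nondiabetic mice than in each Con+vehicle mouse, and its diabetic groups overlapped. The call was kept in 2 of 12 fits that left out a mouse, whose adjusted p ranged from 0.0128 to 0.137, and the value was 0.92 without both unnumbered nondiabetic mice and 0.34 with the marker scaling.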

How the results depend on the processing

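With 3 mice per group, directions held more often than calls. Of 2388 values of single genes under the alternatives, 1861 kept their direction and side of the threshold, 477 lost the call, 21 gained it and 29 changed sign.

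When each mouse was left out in turn, the number of the 42 genes called ranged from 7 to 27 for diabetes, 0 to 0 for ATG in diabetic mice, 0 to 30 for ATG in nondiabetic mice, 31 to 38 for diabetes under ATG, 0 to 6 for the difference of the 2 ATG effects and 0 to 17 for DM+ATG against Con+vehicle. The calls over all 14096 genes ranged, in the same order, from 801 to 3357, 0 to 0, 60 to 3531, 4766 to 7451, 6 to 770 and 114 to 1673. The median differences ranged, in the same order, from 0.45 to 0.64, −0.13 to 0.03, −0.64 to −0.40, 0.81 to 1.09, 0.32 to 0.52 and 0.36 to 0.55. The cause of these shifts was not tested.

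The number in brackets after a count is that over all 14096 genes. For diabetes, 10 (1836) were called without both unnumbered nondiabetic mice, 1 (524) with the tubule covariate, with a median of 0.33, 1 (190) with the leukocyte covariate and 5 (472) with the marker scaling. For ATG in nondiabetic mice, 0 (0) were called with only the groups compared, 0 (8) without the unnumbered mice, 0 (47) with the tubule and 0 (219) with the leukocyte covariate, 2 (538) with median-ratio scaling, 5 (735) with limma-voom, 5 (602) without a trend and 9 (11138), in the other direction, with the marker scaling, with a median of 0.16. For diabetes under ATG, 1 (124) was called with the tubule covariate and 18 (11392) with the marker scaling, with medians of 0.66 and 0.0702. For the difference of the 2 ATG effects, the marker scaling gave 5 (5905), with a median of −0.31. For DM+ATG against Con+vehicle, 26 (3585) were called with only the groups compared, 3 (573) without the unnumbered mice, 0 (76) with the tubule covariate and 0 (93) with the marker scaling.

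Whether the numbers in the titles pair the mice was not settled. Correlations of same-numbered deviations ran from −0.59 to 0.339. No mice of different number were set beside them, so they cannot exclude a pairing. With the number as a replicate block, 8 (1375) genes were called for diabetes, 7 (946) for ATG in nondiabetic mice, 29 (4422) for diabetes under ATG and 1 (179) for DM+ATG against Con+vehicle.

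Irf1 changed sign for diabetes with the replicate block (−0.0776), the tubule covariate (−0.0836) and the marker scaling (−0.0331). The marker scaling, which lifts all genes of Con+ATG, turned the sign for ATG in nondiabetic mice of Lgals3bp (0.14), Ube2l6 (0.16), Ifi35 (0.36), Stat2 (0.16), Irf1 (0.25), Irf7 (0.0274), Irf9 (0.22), Ifit3 (0.0546), Ifih1 (0.36), Ddx58 (0.38), Bst2 (0.0651), Gbp2 (0.41), Iigp1 (0.42), Irf2 (0.41), Il10rb (0.25), Irf3 (0.48) and Gbp5 (0.0746). For diabetes under ATG it turned Ifi35 (−0.005), Ifi27 (−0.11), Irf1 (−0.24), Ifih1 (−0.0764), Ddx58 (−0.20), Gbp2 (−0.28), Igtp (−0.48) and Irgm1 (−0.49), and for the difference of the 2 ATG effects Ifi35 (−0.35).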
